A study of Mus musculus with 6 samples.

Results

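Calmegin, encoded by Clgn, and 5 further chaperones of the endoplasmic reticulum were examined in mouse pro-B cells that received an EBF retrovirus. The 6 genes were Clgn, Canx, Calr, Pdia3, Hspa5 and Hsp90b1. Every probe set that the platform's gene table assigns to exactly 1 of these symbols was kept and read separately, which gave 16 of the 45037 probe sets tested. Clgn, Canx, Calr and Hspa5 had 3 probe sets each, and Pdia3 and Hsp90b1 had 2 each. The genes were chosen by their EBF minus control differences on these same arrays, with Clgn as the gene that differed, so those differences are given for the members as a description, without a test.

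The EBF cells were Pax5-/- pro-B cells infected with the Mig-EBF retrovirus, and the control cells were Pax5-/- pro-B cells infected with the MigR1 control retrovirus, with 3 arrays in each group. All cells lacked Pax5. They were kept in culture with IL-7 (5 ng/ml) on stromal cells of the ST2 line, which comes from bone marrow, and were sorted for GFP 2 days after infection. The labels number the arrays 1 to 3 within each group, written here as EBF 1 to 3 and control 1 to 3. They do not say whether the arrays came from separate cultures or animals, so the spread between arrays may be technical. Only GFP-positive cells were analysed, and no label gives the level or form of EBF protein that they made.

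Calnexin (Canx) and calreticulin (Calr) are lectins of the endoplasmic reticulum. They hold newly made glycoproteins that carry a single remaining glucose on their glycan, release them when it is removed, and bind them again if a folding sensor adds it back. Calmegin is a membrane lectin of the calnexin family, best known from mouse testis, where male germ cells need it to make sperm surface proteins. Pdia3, or ERp57, forms disulfide bonds in the glycoproteins that the lectins hold. Hspa5, or BiP, is the HSP70 of this compartment and is known in B lineage cells for retaining unassembled immunoglobulin heavy chain. Hsp90b1, or GRP94, is its HSP90 and is needed to fold integrins and Toll-like receptors.

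Values are linear intensities, as deposited by the authors for each probe set. Array medians lay between 424 and 451, and 27 control probe sets for Bacillus transcripts, which mouse RNA should not bind, had array medians of 97.6 to 108 and a highest reading of 410. Of 10 pro-B cell markers, 9 had a mean above that highest Bacillus reading and Blnk did not, and the summed level of the 10 was 61097 to 61954 in the EBF arrays and 51335 to 53054 in the control arrays. Bright probe sets such as those of Igll1 and Cd79b carry this sum. The 1 marker of the list that passed by limma, Dntt, went the other way, with a log2 difference of -0.70 (adjusted p = 0.0226), and Cd79a had -0.27 (adjusted p = 0.253). Of the other marker lists, the 12 stromal genes summed to 20689 to 26604 in the EBF arrays and 21679 to 35076 in the control arrays. The 7 plasma cell genes measured summed to 22033 to 23601 in the EBF arrays and 23994 to 24557 in the control arrays, with Prdm1 and Tnfrsf17 below the highest Bacillus reading. Most of that sum is Jchain, with means of 16029 in the EBF arrays and 16982 in the control arrays. Slamf7 (log2 0.60, adjusted p = 0.185, blocked on replicate number 0.00859) and Irf4 (0.28, adjusted p = 0.230) of the same list were of the opposite sign. The part of these marker lists in the results was not tested. Dntt, Cd79a, Cd79b, Jchain, Slamf7 and Irf4 were named after their values were seen. The brightest Ebf1 probe set had a log2 difference of 0.12, and the sources used here do not say whether its probes match the viral copy.

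Clgn was read about 2 times as bright in the EBF arrays as in the control arrays at each of its 3 probe sets. At probe set 1457829_at, Clgn read 2014, 1948 and 1395 in EBF 1 to 3, against 933, 769.99 and 547 in control 1 to 3. At 1418617_x_at it read 1431, 1489 and 1167 in EBF 1 to 3, against 788, 711 and 576 in control 1 to 3. At 1430240_a_at it read 603, 639.96 and 531 in EBF 1 to 3, against 318, 283 and 197 in control 1 to 3. The lowest EBF array lay above the highest control array in all 3 probe sets, and the third array was the lowest of its group each time. Over all 45037 probe sets, 15.5% had every EBF array above every control array. Clgn was chosen on this contrast, so nothing is read from the lack of overlap.

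**Figure D1:**
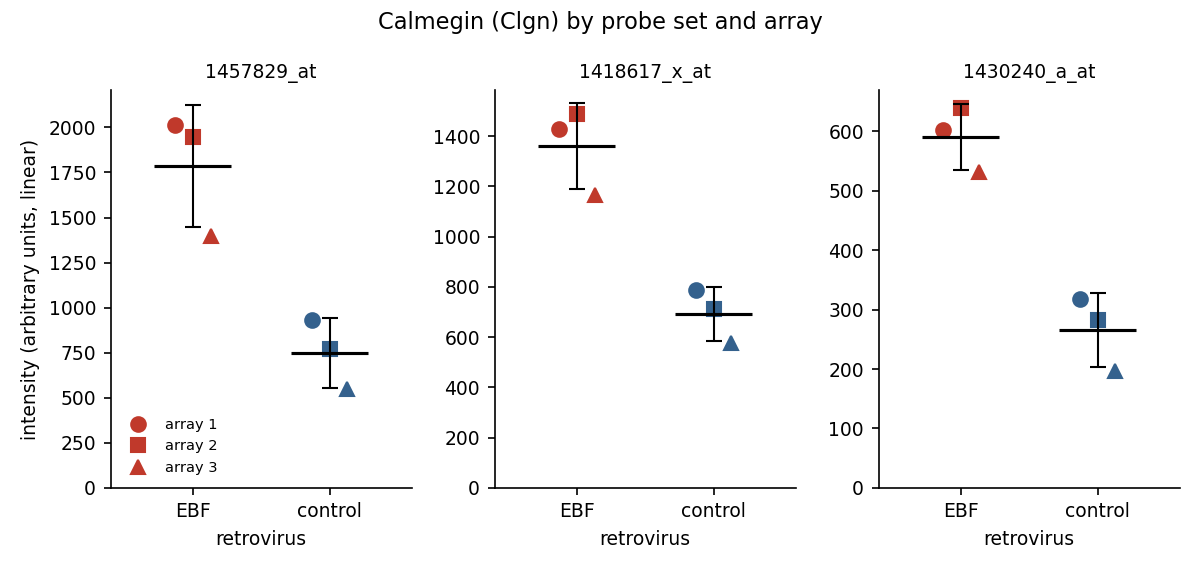
Intensity (arbitrary units, linear axis from 0) of the 3 Clgn probe sets, with EBF arrays in red on the left and control arrays in blue on the right of each panel. Marker shape gives the array number, horizontal bars are means and error bars are SD (n = 3 arrays each). The groups do not overlap in any panel, where 15.5% of all 45037 probe sets had every EBF array above every control array.

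Clgn averaged 1786 ± 340.1 in the EBF arrays and 750.2 ± 194 in the control arrays at 1457829_at (SD, n = 3 each), a log2 difference of 1.23 ± 0.20 (SE), or 2.35-fold. At 1418617_x_at Clgn averaged 1362 ± 172 in the EBF arrays and 692 ± 107 in the control arrays, with a log2 difference of 0.95 ± 0.13 and a fold of 1.93. At 1430240_a_at it averaged 591 ± 55.3 in the EBF arrays and 266 ± 62.3 in the control arrays, with a log2 difference of 1.08 ± 0.15 and a fold of 2.12. Log2 differences are EBF minus control on the log2(intensity + 32) scale, with standard errors from the limma fit over all probe sets. The suffix of a probe set says how specific its probes are: those ending in _x_at can also bind other transcripts, and those ending in _a_at bind several transcripts of 1 gene. The plain _at probe set, 1457829_at, carried the largest of the 3 differences and also the largest of the 3 standard errors. The order of the 3 differences was not tested.

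The third array was lowest in both groups at each Clgn probe set, but arrays 1 and 2 kept the same order only at 1457829_at. At 1457829_at the Clgn log2 difference was 1.08, 1.30 and 1.30 between EBF and control arrays 1, 2 and 3. At 1418617_x_at it was 0.84, 1.03 and 0.98, and at 1430240_a_at it was 0.86, 1.09 and 1.30. All 9 differences were positive, as they must be where the groups do not overlap. The 3 probe sets also varied together within each group. Their deviations from the group means correlated by 0.94 to 0.99 over the 6 arrays. The 3 probe sets were read on the same arrays and are not replicates of each other. Leaving out any 1 array moved the difference at 1457829_at between 1.03 (without control 3) and 1.40 (without control 1).

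**Figure D2:**
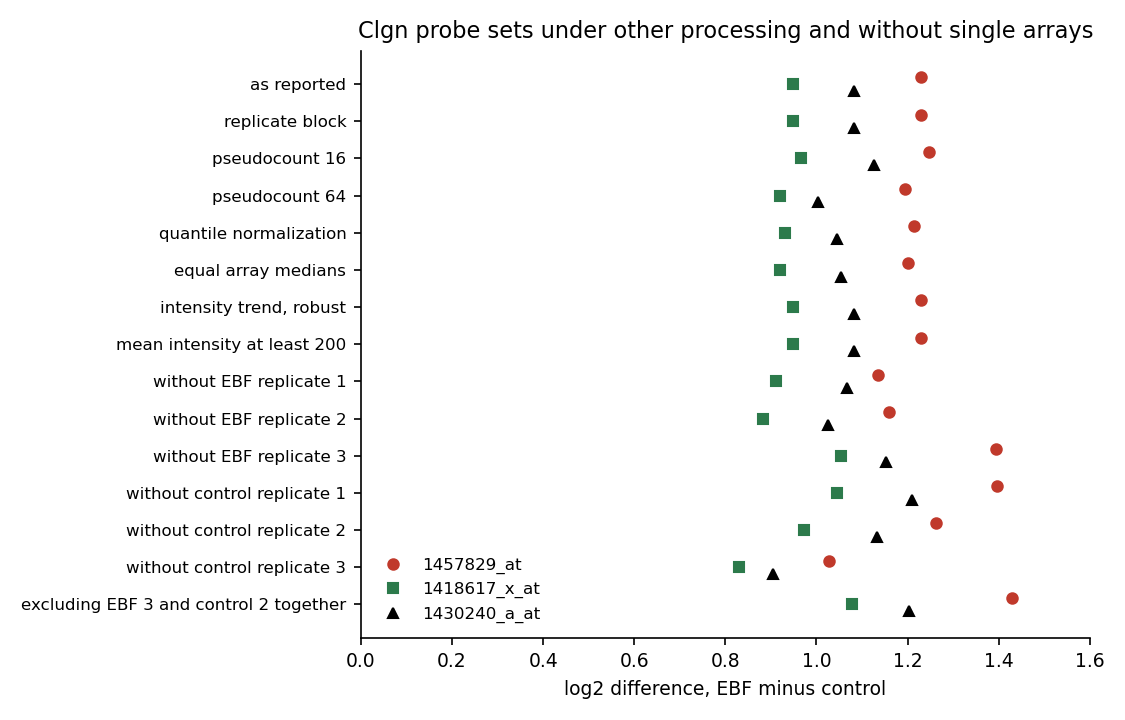
Log2 difference of Clgn, EBF minus control (horizontal axis, log2 scale from 0), for its 3 probe sets under each processing setting and with arrays left out. All values lie between 0.83 and 1.43.

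The lowest Clgn reading, 197 in control 3 at 1430240_a_at, was above the Bacillus medians and below the highest Bacillus reading. Control 1 to 3 at this probe set, and no EBF array, were below that highest reading. At 1457829_at and 1418617_x_at every array was above it, so Clgn was read above these controls in cells without the EBF virus too. All 16 member probe sets had a mean of at least 200, so none was lost to a filter on dim probe sets.

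The fit across all probe sets, with a Benjamini-Hochberg adjusted p below 0.05 as threshold, called 3 of the 16 member probe sets, all of them Clgn and all higher in the EBF arrays. It called 0.344% of all probe sets higher, 0.531% lower and 0.875% in either direction. A fit blocked on replicate number called the same 3, where it called 7.28% of all probe sets. The contrast that gave these calls is the one on which the genes were selected, so nothing is read from the count. The count was 0 without EBF 1, without EBF 2 or without control 2, was 2 without control 1 or control 3, and was 3 without EBF 3 or without EBF 3 and control 2 together.

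The 5 partner genes read nearly the same in both groups. Across their 13 probe sets the log2 differences ran from -0.05 to 0.17 with a median of 0.02, against a median of 0.02 over all 45037 probe sets. The widest bounds of their 95% intervals, unadjusted, were -0.27 and 0.42, given as a description.

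**Figure D3:**
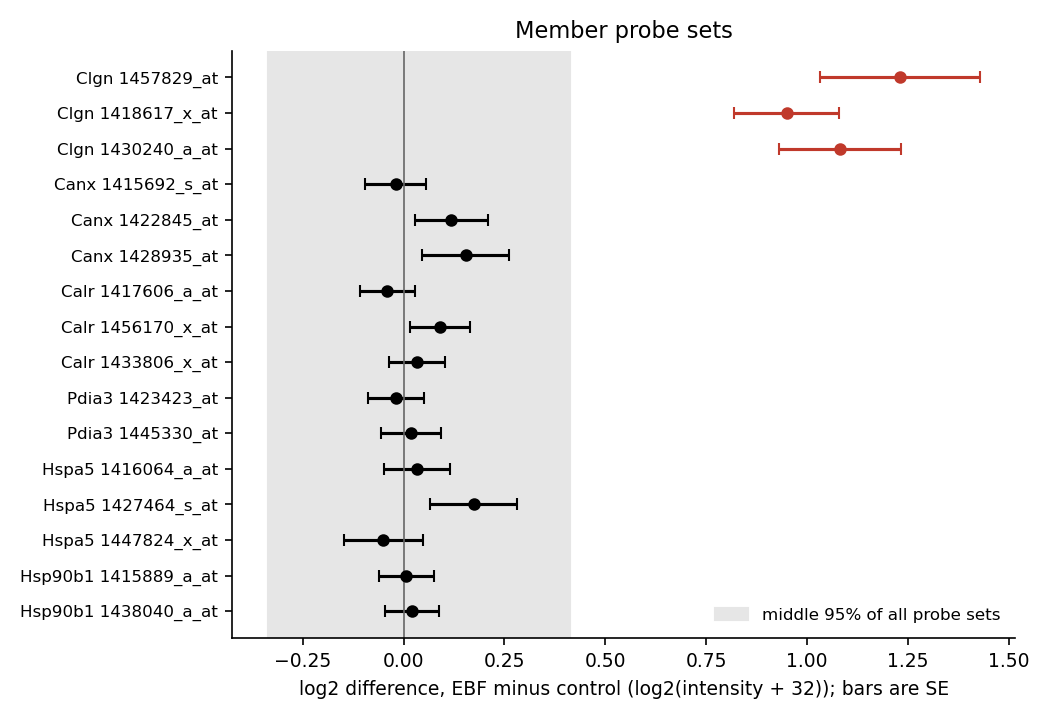
Log2 difference, EBF minus control, on the log2(intensity + 32) scale (horizontal axis) for each of the 16 member probe sets, with bars for the SE from limma. Clgn is in red, and the grey band spans the middle 95% of all 45037 probe sets, from -0.34 to 0.41. The 13 partner probe sets lie inside the band and the 3 Clgn probe sets above it. The genes were chosen on these same differences, so the band is a description and not a test of them.

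The promoters of the partners were also searched for motifs, which the choice of genes did not use. RefSeq promoters (GRCm38.p6, from 250 bases before to 50 bases after the gene start) were listed for Canx, Calr, Pdia3, Hspa5 and Hsp90b1. They were searched on both strands for the ER stress response element, CCAAT and CCACG with 9 free bases between them, a sequence bound by NF-Y and by ATF6, a transcription factor of the unfolded protein response. It was found in 4 of the 5 promoters, those of Hspa5, Calr, Hsp90b1 and Canx, and in 0.119% of all 32851 promoters listed. The element is known from chaperone promoters such as that of Hspa5, so this count is a description and not an independent finding. The 250 bases before the Hspa5 start, the promoter in which this element is best known, lie at chr2:34771840-34772089 on the plus strand, with the element in capitals:
Hspa5: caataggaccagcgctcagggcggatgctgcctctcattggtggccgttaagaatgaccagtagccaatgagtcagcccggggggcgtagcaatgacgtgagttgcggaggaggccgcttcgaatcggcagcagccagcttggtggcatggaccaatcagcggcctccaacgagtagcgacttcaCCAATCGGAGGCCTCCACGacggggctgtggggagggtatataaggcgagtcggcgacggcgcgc

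The element ended 46 bases before the Hspa5 start, and the other distances are also from the near end of the element. It is shown for the other 3 genes with up to 15 bases on either side, 5′ to 3′ on the strand of the gene, so that the shared outer blocks and the differing spacers can be compared. Hsp90b1 held 2 copies in opposite orientations, 193 and 88 bases before its start, Canx held 1 forward copy 126 bases before, and Calr 1 reverse copy 143 bases before. The Canx stretch is chr11:50325785-50325833, those of Hsp90b1 are chr10:86705623-86705671 and chr10:86705518-86705566, and that of Calr is chr8:84847060-84847108, all on the minus strand:
Canx: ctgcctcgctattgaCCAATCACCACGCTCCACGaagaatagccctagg
Hsp90b1 forward: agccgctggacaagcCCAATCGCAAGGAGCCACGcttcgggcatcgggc
Hsp90b1 reverse: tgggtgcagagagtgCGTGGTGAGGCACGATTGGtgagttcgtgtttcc
Calr reverse: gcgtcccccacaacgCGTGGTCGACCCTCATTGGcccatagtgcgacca

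The other motifs searched, also on both strands, were a second form of this element (ATTGG and CCACG with 1 free base between them), the core of the unfolded protein response element (TGACGTGG) and the palindrome bound by EBF (TCCC and GGGA with 2 free bases between them). None of the 4 patterns contains another whole, but CGTGG within TGACGTGG is the CCACG block read on the other strand. These 3 were in 0 of the 5 partner promoters, and in 0.0365%, 0.676% and 0.904% of all promoters listed. No promoter was listed for Clgn, so Clgn was not searched for any of the 4 patterns. A match is a stretch of letters and not a measured binding site, and the absence of these letters from the window says nothing about the factors.

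Of the lectins, Canx read 8437, 9343 and 9575 in EBF 1 to 3, against 9258, 9154 and 9283 in control 1 to 3, at its brightest probe set, 1415692_s_at. The EBF arrays lay on both sides of the control arrays, and the log2 difference was -0.02 ± 0.07 (SE). The other Canx probe sets had differences of 0.12 ± 0.09 (1422845_at) and 0.15 ± 0.11 (1428935_at), and the groups overlapped in both. Without EBF 3 and control 2 the Canx difference at 1428935_at was 0.32.

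Calr read 9990.39, 10056 and 9819 in EBF 1 to 3, against 9873, 10654 and 10203 in control 1 to 3, at 1417606_a_at, a log2 difference of -0.04 ± 0.07. At 1456170_x_at Calr read 9801, 8819 and 8615 in the EBF arrays, against 8436, 8582 and 8515 in the control arrays. Here every EBF array was above every control array, with a difference of 0.09 ± 0.08. The other Calr probe set, 1433806_x_at, had 0.03 ± 0.07 and overlapped. Calr 1456170_x_at was the 1 of 13 partner probe sets whose groups did not overlap, where 23.2% of all probe sets did not.

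Pdia3, the disulfide isomerase of the lectins, read 9792, 9013 and 9392 in EBF 1 to 3, against 9782, 9305 and 9459 in control 1 to 3, at 1423423_at. The groups overlapped and the log2 difference was -0.02 ± 0.07. Its other probe set, 1445330_at, read 532 to 593 in the EBF arrays and 538 to 584 in the control arrays, a difference of 0.02 ± 0.07.

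Hspa5 read 10740.09, 11882 and 10761 in EBF 1 to 3, against 10929, 11621 and 10086 in control 1 to 3, at 1416064_a_at, with a log2 difference of 0.03 ± 0.08. At 1427464_s_at, which can bind more than 1 transcript, Hspa5 read 7262, 8604 and 6759 in the EBF arrays, against 6863, 7092 and 6037 in the control arrays. Its difference of 0.17 ± 0.11 was the largest among the partners, and all 3 same-numbered differences there were positive (0.08, 0.28 and 0.16), but the groups overlapped. The remaining Hspa5 probe set, 1447824_x_at, had -0.05 ± 0.10, so the probe sets of this gene did not share a sign.

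Hsp90b1 read 9732, 10213 and 10510.3 in EBF 1 to 3, against 9997, 9967 and 10334 in control 1 to 3, at 1415889_a_at. The log2 difference was 0.01 ± 0.07 and the groups overlapped. Its other probe set, 1438040_a_at, read 9406 to 9558 in the EBF arrays and 9094 to 9648 in the control arrays, a difference of 0.02 ± 0.07. Quantile normalization turned the sign there, to -0.02.

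**Figure D4:**
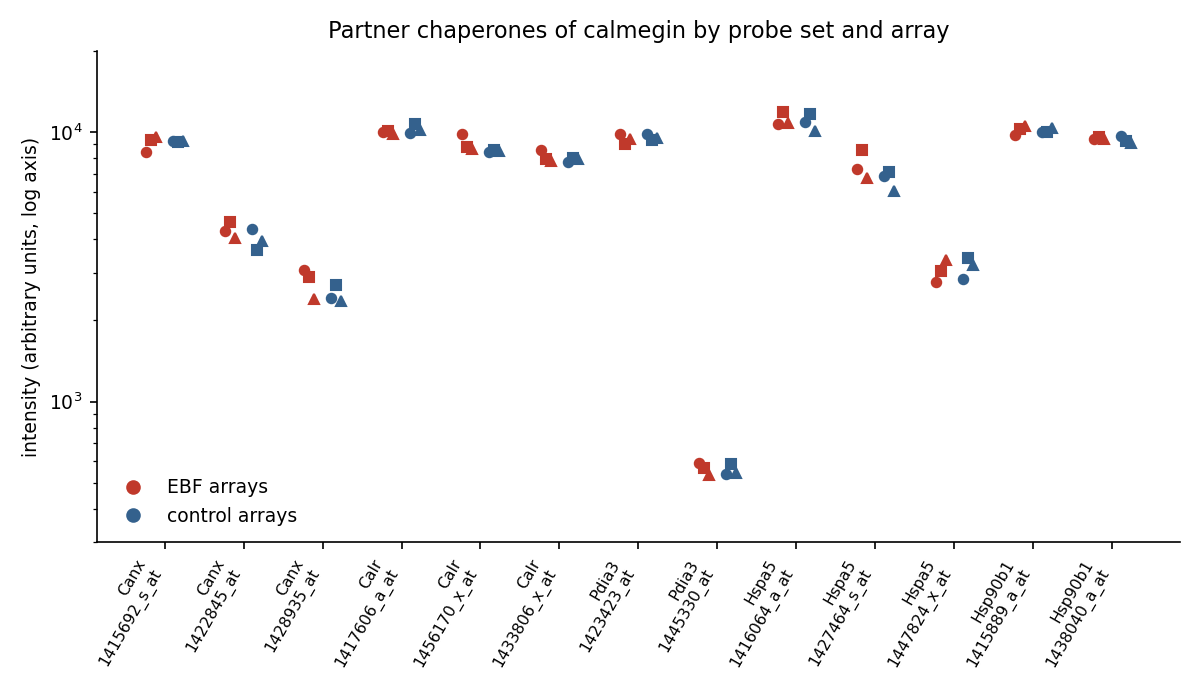
Intensity (arbitrary units, log axis) of the 13 probe sets of Canx, Calr, Pdia3, Hspa5 and Hsp90b1, with the 3 EBF arrays in red to the left of the 3 control arrays in blue and the marker shape giving the array number as for Clgn. The groups overlap in 12 of the 13 probe sets, and the exception is Calr 1456170_x_at.

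The wider machinery of the compartment was read through 6 lists of 112 genes, taking each gene at its brightest probe set. Of the 110 genes measured, 1 rose and 0 fell by limma, against 0.418% of all 18193 genes called higher and 0.671% called lower. Their median log2 difference was -0.02, against 0.03 over all genes, and 43.6% of them had a positive difference, against 58.0% of all genes. Of the 110, 19 had an unadjusted p below 0.05, or 17.3%, against 19.7% of all genes, and the counts at an unadjusted p given for each list are to be read against that share. In a fit blocked on replicate number, 4 rose and 0 fell, where that fit called 4.82% of all genes higher and 2.52% lower.

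The 1 gene called was Trib3, a pseudokinase that the stress factors ATF4 and CHOP switch on, in the unfolded protein response list of 18. Trib3 read 2013, 2074 and 1688 in EBF 1 to 3, against 1395, 1164 and 1234 in control 1 to 3, with no overlap. It rose by 0.59 ± 0.10 on the log2 scale (limma adjusted p = 0.0453, blocked 0.00733). The call was lost with a pseudocount of 16 (adjusted p = 0.0549), with quantile normalization (0.0526), with equal array medians (0.0649) and without any 1 array other than EBF 3 (highest 0.200). The other Trib3 probe set, 1426065_a_at, had 0.36 ± 0.09 (adjusted p = 0.126, blocked 0.0250).

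In the whole unfolded protein response list 5 genes, Trib3 among them, had an unadjusted p below 0.05 (27.8%), and the list median was 0.03. The genes called only with the block across the 6 lists were Asns, Mogs and Cnpy2, of which Asns and Cnpy2 were picked after their values were seen. Asns, the asparagine synthetase gene and another ATF4 target, read 5461, 5523 and 6315 in EBF 1 to 3, against 3767, 3597 and 4489 in control 1 to 3. Its log2 difference was 0.55 ± 0.10 (limma adjusted p = 0.0593, blocked 0.00479), and its other probe set, 1433966_x_at, had 0.75 ± 0.12 (adjusted p = 0.0355). That Asns probe set and the brighter Trib3 one, 1456225_x_at, were the 2 that passed among all 253 probe sets of the listed genes. Xbp1, the transcription factor of the IRE1 branch, had -0.00131, and Ddit3, which encodes CHOP, had 0.41 with an adjusted p of 0.282; both were also named after their values were seen.

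In the glycan and lectin cycle list of 16, 0 genes passed by limma and 3 had an unadjusted p below 0.05 (18.8%). The smallest p belonged to Mogs, the glucosidase that removes the first glucose and so starts the path to the calnexin substrate. Mogs read 4285, 4436 and 4191 in EBF 1 to 3, against 3519, 3323 and 3403 in control 1 to 3, with no overlap (log2 0.33 ± 0.07, limma adjusted p = 0.0772, blocked 0.0331). Mcfd2, a cofactor of the cargo lectin LMAN1, had -0.17 ± 0.07 (adjusted p = 0.224). The list median was -0.02.

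Of 19 disulfide isomerases and oxidases 0 passed, with 2 at an unadjusted p below 0.05 (10.5%) and a median of -0.01. The membrane thioredoxins Tmx3 and Tmx4 had -0.25 ± 0.08 and -0.22 ± 0.09 (limma adjusted p = 0.173 and 0.262). Of 19 partners of the HSP70 and HSP90 of the compartment 0 passed, with 4 at an unadjusted p below 0.05 (21.1%) and a median of 0.00402. Sdf2 had -0.28 ± 0.08 and Sec63, the co-chaperone that brings BiP to the translocon, had 0.23 ± 0.07 (adjusted p = 0.160 and 0.164). Cnpy2 had 0.45 ± 0.15 at its brightest probe set (adjusted p = 0.181, blocked 0.0321) and -0.18 to 0.08 at its other 3.

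Of 17 genes of ER-associated degradation 0 passed, with 4 at an unadjusted p below 0.05 (23.5%) and a median of -0.04. Syvn1, the ubiquitin ligase HRD1, had 0.22 ± 0.07 and Derl1, a channel component, had -0.23 ± 0.08 (limma adjusted p = 0.185 and 0.202). Of 21 genes of the translocon and the oligosaccharyltransferase, which adds glycans to new proteins, 0 passed, with 1 at an unadjusted p below 0.05 (4.76%) and a median of -0.05. Its subunits Stt3b and Tusc3 had -0.19 ± 0.07 and -0.19 ± 0.09 (adjusted p = 0.206 and 0.273). In both fits, with and without the block, 0 genes of these 2 lists passed.

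The stress response element was also looked for among the listed genes. Of the 88 with a promoter listed, 6 held it, or 6.82%, against 0.137% of all genes with a promoter, again as a description. They were Creld2, Derl3, Dnajc3, Ero1b, Pdia6 and Syvn1, and their log2 differences ran from -0.06 to 0.22 with a median of 0.04. By limma, 0 of the 6 passed, where 1.09% of all genes were called in either direction, so nothing is read from this count.

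**Figure D5:**
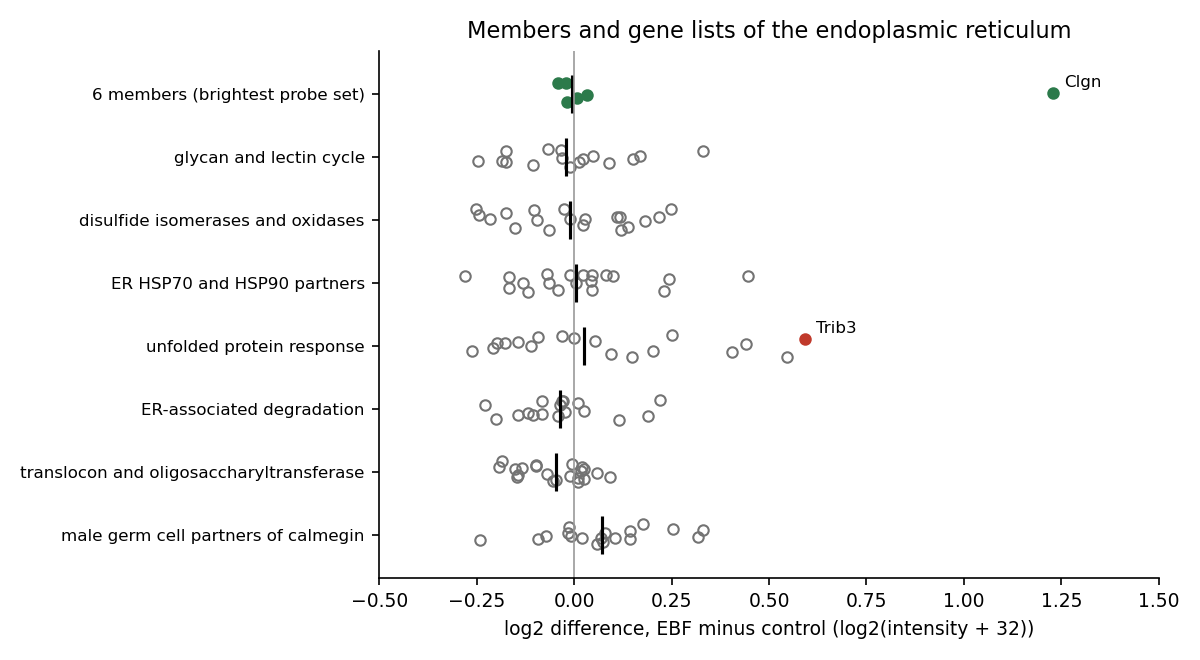
Log2 difference, EBF minus control, on the log2(intensity + 32) scale (horizontal axis), for the 6 members and for each gene of the 7 lists at its brightest probe set, with a vertical bar at each median. Members are green without a test, filled red marks a listed gene past the threshold (Trib3), and open circles did not pass. Clgn, at 1.23, lies to the right of every listed gene, but it was chosen on this same difference, so its place is a description.

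Because calmegin is known from mouse testis, 18 genes of male germ cells were read as well, among them partners and clients of calmegin. By limma 0 passed, with 2 at an unadjusted p below 0.05 (11.1%, against 19.7% of all genes), and the list median was 0.07. Of the 8 that are markers of male germ cells, 6 had a mean below the highest Bacillus reading, and the 8 summed to 1949 to 1989 in the EBF arrays and 1900.21 to 2010.38 in the control arrays. Pdilt, a testis disulfide isomerase that pairs with calmegin in the mouse, read 348, 321 and 279 in EBF 1 to 3, against 249, 248 and 242 in control 1 to 3. All its readings lay below the highest Bacillus reading (log2 0.32 ± 0.09, adjusted p = 0.140, blocked 0.0464), and its other probe set, 1454033_at, had 0.28 ± 0.18 with overlap (adjusted p = 0.421). Odf1, a sperm tail protein, had 0.25 ± 0.08 (adjusted p = 0.171).

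With the block 2 of the 18 rose, Pdilt and Adam6b, where that fit called 4.82% of all genes higher. Adam6b, named after its values were seen, averaged 391 in the EBF arrays and 309 in the control arrays, below the highest Bacillus reading, and its groups overlapped (0.33 ± 0.23, limma adjusted p = 0.453, blocked 0.0455). The germ cell lectin Calr3, the calreticulin relative of testis, had 0.07 with means of 268 in the EBF arrays and 254 in the control arrays. The sperm surface gene Adam3, whose protein needs calmegin, had -0.01 with means of 288 in the EBF arrays and 292 in the control arrays, also below the highest Bacillus reading. Calr3 and Adam3 were named after their values were seen.

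The neighbours of Clgn on its chromosome in the RefSeq gene table are the long non-coding RNA Gm32377, for which no probe set is named, and Scoc. Scoc read 880.38, 1173 and 1241 in EBF 1 to 3, against 966, 882 and 860.19 in control 1 to 3, at 1416267_at. The groups overlapped, and the difference was 0.26 ± 0.13 (limma adjusted p = 0.301). Its other probe set, 1430999_a_at, had 0.19 ± 0.11 (adjusted p = 0.372).

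The genes whose pattern was most like that of Clgn at 1457829_at, by Pearson's correlation over the 6 arrays among 15386 genes with a mean of at least 200, were Lzic, Ebna1bp2, Igll1, Slc19a1 and Rras2. Their correlations were 0.996 to 0.998. The points share their arrays and the split into groups, so these values describe the likeness of 6 readings and no more. Their log2 differences were smaller than that of Clgn. They were 0.14 for Lzic, 0.35 for Ebna1bp2, 0.57 for Igll1, which encodes the lambda5 surrogate light chain, 0.42 for the folate carrier gene Slc19a1 and 0.43 for Rras2, and 0 of the 5 passed by limma (adjusted p from 0.0788 to 0.300). With the block 4 of the 5 passed, Ebna1bp2 (0.0256), Igll1 (0.00409), Slc19a1 (0.0129) and Rras2 (0.0121), and Lzic did not (0.257); genes chosen for their likeness to Clgn share its split into groups, so nothing is read from this count. Igll1 read 14518, 14283 and 12201 in EBF 1 to 3, against 10286, 9654 and 7789 in control 1 to 3, with the third array lowest in both groups, as for Clgn.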

How the data were processed

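RNA of 3 EBF and 3 control arrays was hybridised to Affymetrix arrays by the authors; the design text names a rat array, but the organism label and the platform's gene table are those of mouse. The deposited values are linear intensities, 1 per probe set and array. What software, background step and normalization produced them is not given in the sources used here. Of 45101 rows, 64 hold Affymetrix controls and were set aside. Each value was analysed as log2(intensity + 32), so fold changes of dim probe sets are understated. The fit used limma 3.58.1 under R 4.3.3, with group alone in the model, two-sided tests and Benjamini-Hochberg adjustment over all 45037 probe sets. The method was tested on simulated data.

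Gene names came from the platform's table, where 34945 probe sets had 1 symbol, 932 had several and 9160 had none; the RefSeq genes of GRCm38.p6 held 34741 of the first. RefSeq promoters matched 5 of the 6 members. The members and lists were chosen with earlier results of these data known. The genes named were all members, the largest changes of each list or else its 2 smallest p-values, the 5 genes most like Clgn and its neighbours; marker genes, promoter matches and genes marked as chosen after their values were seen come on top. The array numbers were taken to pair the arrays in the blocked fit and in the same-numbered differences. The main fit left the pairing out, so its standard errors, adjusted p-values and counts do not use it. The pairing rests on the data and not on the labels: deviations of same-numbered arrays correlated by 0.318, 0.255 and 0.503, all above the limit of 0.1. The number of arrays limits the precision.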

Additional observations from a re-analysis of the deposited data

How the results depend on the processing

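The 394 probe sets called became 3280 with the replicate number as a block, 611 with an intensity trend and robust variances, and 1887 without EBF 3 and control 2. Leaving out 1 array gave 79 to 4287: leaving out EBF 1, 2 or 3 gave 119, 79 or 4287, and leaving out control 1, 2 or 3 gave 95, 83 or 214. The count of member probe sets called ran from 0 to 3 without single arrays and was 3 under each of the other alternatives run. The block changed no call among the members. The genes were selected on this contrast, so nothing is read from these counts of members. Of the listed genes of the endoplasmic reticulum, the 1 called became 4 with the replicate block, 0 with a pseudocount of 16, 2 with a pseudocount of 64, 0 with quantile normalization, 0 with equal array medians and 3 with the intensity trend. It became 5 without EBF 3 and control 2, of which 4 were higher and 1 lower, and 4 with the mean of all probe sets of a gene. Without single arrays it ran from 0 to 7: 7 without EBF 3, 1 without control 3 (Asns in place of Trib3) and 0 without any other array. The cause of these shifts was not tested. The 3 Clgn differences kept their direction under all 14 alternatives run. The Clgn groups do not overlap, so leaving out arrays, another pseudocount or the block could not turn the sign. Partner probe sets moved by more than their spread in 3 cases: Hsp90b1 1438040_a_at (-0.02 with quantile normalization), and Canx 1428935_at (0.32) and Pdia3 1445330_at (0.09) without EBF 3 and control 2.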
